A study of Mus musculus with 18 samples.

Results

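The genes described here are 9 genes of glutamine, glutamate and aspartate metabolism, chosen by symbol from the 35275 genes of the count table. They are the carriers *Slc1a5*, *Slc38a1* and *Slc7a5*, the glutaminase *Gls2*, the glutamine synthetase *Glul*, the glutamate dehydrogenase *Glud1*, the aspartate aminotransferases *Got1* and *Got2* and the asparagine synthetase *Asns*. The rule uses symbols and no measured value, though it was set with earlier results of these data known. All 9 had enough counts to be tested.

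The RNA came from 6 mouse cell lines grown from malignant peripheral nerve sheath tumors (MPNSTs), aggressive sarcomas of the nerve sheath. The tumors were raised in immune-competent, wild-type 129 Sv/Jae mice by injecting the sciatic nerve with an adenovirus that carries guide RNAs and a Cas9 driven by the CMV promoter, which does not restrict the edit to 1 cell type. In 3 lines the targets were *Nf1* and *Trp53* (*Nf1*/*p53* dKO) and in the other 3 *Nf1* and *Cdkn2a*, the locus of p16 and p19 (*Nf1*/*Cdkn2a* dKO), so that *Nf1* was targeted in every line and no line with both *Trp53* and *Cdkn2a* left untargeted is compared. Each line stems from 1 tumor and was passaged many times, grown without treatment in DMEM with serum and sodium pyruvate, and collected as 3 cultures, which gave 18 libraries.

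Glutamine enters cells through carriers such as *Slc1a5* and *Slc38a1*, and *Slc7a5*, paired with the heavy chain *Slc3a2*, exchanges glutamine for large neutral amino acids such as leucine. Glutaminases release ammonia from glutamine to make glutamate, and *Glul* runs the opposite reaction. *Glud1* and the aminotransferases turn glutamate into α-ketoglutarate for the mitochondrial citric acid cycle, the aminotransferases with the formation of aspartate, and *Asns* uses aspartate and glutamine to make asparagine. When amino acids run short, the kinase GCN2 raises translation of the transcription factor ATF4, which binds C/EBP-ATF response elements in genes such as *Asns*. Tumor cells in culture are known for a high use of glutamine.

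Libraries held 19560535 to 28312207 counts (median 23149777), and the 3 cultures of a line summed to 65206479 to 73065228. No culture was a repeat of another, since in each line all pairs were further apart than counting noise allows (chi-square over its degrees of freedom 3.50 to 27.1). The targeted *Trp53* stood at 94.1, 67.5 and 58.7 CPM (counts scaled to library size after TMM) in *Nf1*/*p53* dKO lines 1, 2 and 3 and at 247, 246 and 185 CPM in *Nf1*/*Cdkn2a* dKO lines 1, 2 and 3. For *Nf1* and *Cdkn2a* the genotypes overlapped, and a count does not read out the sequence at a guide's target. Markers of cell types were summed in each culture, as CPM on raw library totals without TMM. Of 6 Schwann cell markers, 4 reached 1 CPM in some culture while *Sox10* stayed below 1 CPM everywhere. The mesenchymal markers, the cell type given in the labels, summed to 8465 to 22399 CPM over *Nf1*/*p53* dKO cultures. Over *Nf1*/*Cdkn2a* dKO cultures they summed to 9944 to 16216 CPM. Leukocyte and endothelial markers summed to at most 7.89 and 2.29 CPM. The muscle markers *Myod1*, *Myf5*, *Myog* and *Des* summed to 25.9 to 360 CPM over *Nf1*/*p53* dKO cultures and to at most 0.665 CPM over *Nf1*/*Cdkn2a* dKO cultures. The fibroblast markers *Pdgfra*, *Dcn*, *Lum* and *Thy1*, all above 1 CPM in some line, summed to 622 to 1195 CPM against 48.4 to 736 CPM. In bulk RNA, fewer cells of a type and less RNA per cell cannot be told apart.

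The question was which of these genes differ between loss of p53 and loss of *Cdkn2a*. *Asns* was the only member called, 2.59-fold lower in the *Nf1*/*Cdkn2a* dKO by the means of the lines. *Got1* was higher in every *Nf1*/*Cdkn2a* dKO line than in any *Nf1*/*p53* dKO line but missed the threshold. The 3 carriers, *Gls2*, *Glul*, *Glud1* and *Got2* overlapped between genotypes, and several of them differed more among lines of 1 genotype than the genotypes did on average. The genotypes were compared over lines, 3 against 3, by the quasi-likelihood test of edgeR (two-sided, p adjusted by Benjamini-Hochberg over 15207 genes), a positive log2 fold change being higher in the *Nf1*/*Cdkn2a* dKO. Of the 9 members 1 passed an adjusted p of 0.05, beside 1.8% of all tested genes (274 genes, 97 higher and 177 lower, or 86 and 337 when libraries are scaled by raw totals, which moves the median of all genes by −0.13 on the log2 scale). At an unadjusted p of 0.05 it was 2 members beside 22.4% of all genes, and the lines did not overlap in 2 members beside 31.4% of all genes. Both shares over the members lie near the background. Of the 9 log2 fold changes 3 lay above 0 and 6 below, with a median of −0.023, the same as over all genes since *Got2* is the median of both.

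**Figure D1:**
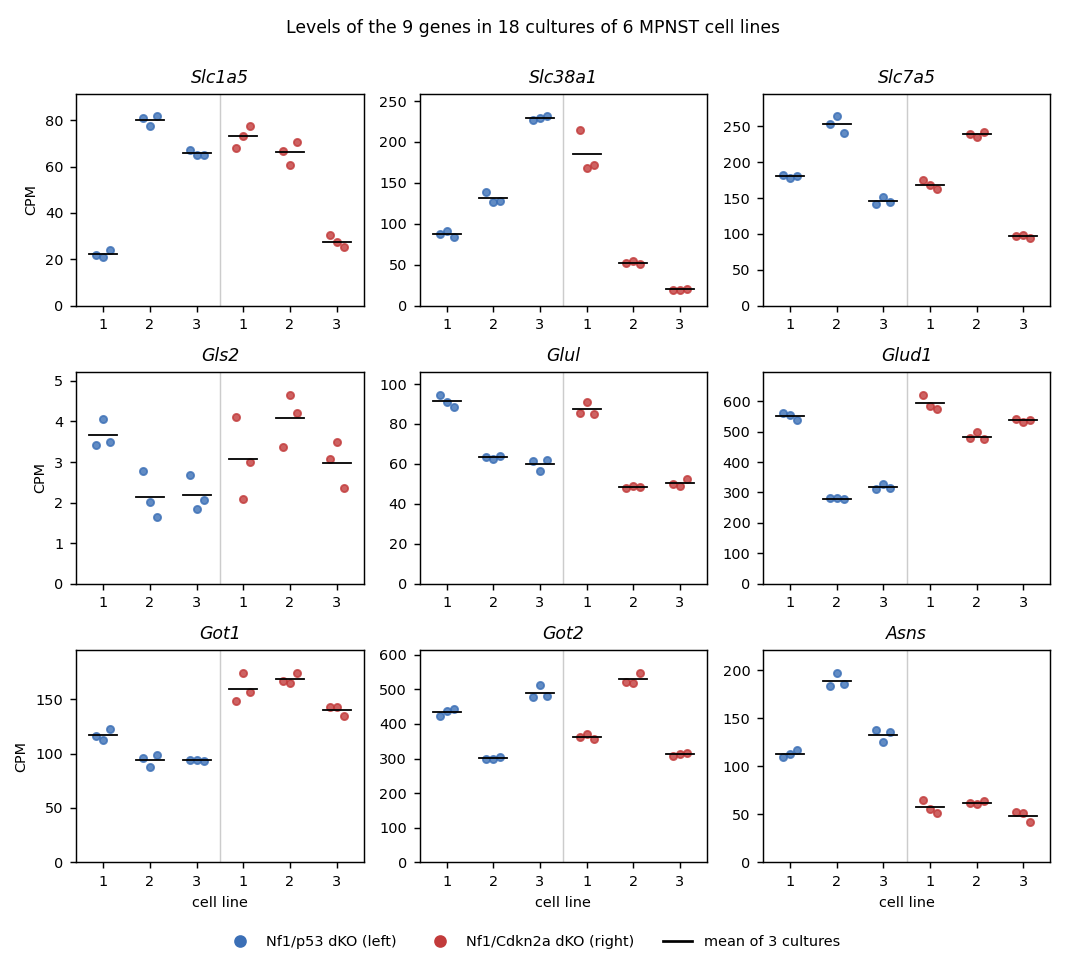
Levels of the 9 genes in CPM (vertical axis, from 0) in each of the 18 cultures (points), by cell line (horizontal axis, *Nf1*/*p53* dKO lines at left in blue, *Nf1*/*Cdkn2a* dKO lines at right in red), with bars at the mean of 3 cultures. *Asns* and *Got1* separate the genotypes, at 110 to 197 against 42.1 to 64.4 CPM and 87.7 to 123 against 134 to 174 CPM, while *Slc38a1* and *Slc1a5* spread widely among lines of the same genotype.

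*Asns* (ENSMUSG00000029752, chromosome 6, 7675169 to 7693254, minus strand, GRCm38) makes asparagine from aspartate, with glutamine as the nitrogen donor. Its level was 113, 189 and 133 CPM in *Nf1*/*p53* dKO lines 1, 2 and 3 and 56.9, 62.1 and 48.7 CPM in *Nf1*/*Cdkn2a* dKO lines 1, 2 and 3. The lowest *Nf1*/*p53* dKO culture, at 110 CPM, lay above the highest *Nf1*/*Cdkn2a* dKO culture, at 64.4 CPM, so neither lines nor cultures overlapped. The means were 145 ± 39.7 and 55.9 ± 6.76 CPM (SD, n = 3 lines each), a log2 fold change of −1.37 (standard error 0.22, 95% interval −1.91 to −0.84, edgeR adjusted p = 0.0465). The value lies just inside the threshold, and with 1 line left out the log2 fold change ran from −1.52 to −1.12 with an adjusted p below 0.05 only without *Nf1*/*p53* dKO line 1 (0.0486, where 1.11% of all genes are called) and of 0.0718 to 0.150 otherwise. The 17 alternatives gave adjusted p-values of 2.60e-21 (DESeq2 on 18 separate cultures, which calls 39.3% of all genes) to 0.150. The summed muscle markers above were lower in every *Nf1*/*Cdkn2a* dKO line. Of the fibroblast markers *Dcn* and *Lum* were too, while *Pdgfra* and *Thy1* overlapped between genotypes and were highest in *Nf1*/*Cdkn2a* dKO line 3 (295 and 467 CPM). The part of these markers in the difference of *Asns* was not tested. Without *Nf1*/*p53* dKO line 3, where *Myod1* was at 204 CPM and *Dcn* at 934 CPM, the log2 fold change of *Asns* was −1.43 (edgeR adjusted p = 0.0718). This does not separate the markers from the genotype. *Nf1*/*p53* dKO lines 1 and 2 still held *Myf5* at 28.0 and 24.2 CPM and *Dcn* at 119 and 104 CPM. In *Nf1*/*Cdkn2a* dKO lines these were at most 0.0156 and 6.59 CPM. Among lines of the *Nf1*/*p53* dKO, line 2 stood above line 3 and line 3 above line 1 with no overlap of cultures, whereas in the *Nf1*/*Cdkn2a* dKO the cultures of neighboring lines overlapped.

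**Figure D2:**
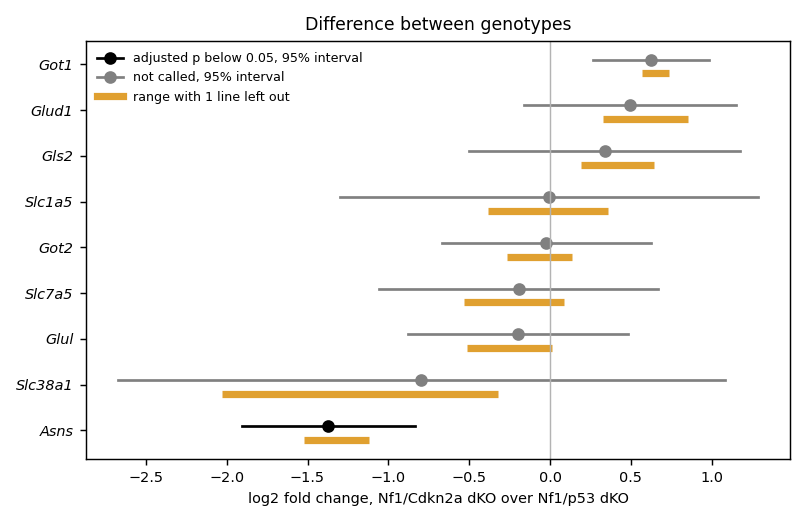
Log2 fold change of each gene, *Nf1*/*Cdkn2a* dKO over *Nf1*/*p53* dKO (horizontal axis), as points with 95% intervals from edgeR (n = 3 lines each; black, adjusted p below 0.05; grey, not called) and the range when 1 line is left out (orange bars). *Asns* (−1.37) and *Got1* (0.62) have intervals that do not reach 0, and *Slc38a1* has the widest, from −2.67 to 1.08.

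*Asns* and *Got1* were the 2 of 5 members with an entry in the promoter table, RefSeq windows from 250 bases before to 50 after the start in build GRCm38.p6, that held the core of the C/EBP-ATF response element, TGATGNAA on either strand. The sites are shown because this is the element through which ATF4 acts on amino acid genes. Each is printed on the gene's own strand with the matching bases in capitals, the *Asns* site at chr6:7693214-7693243 and the *Got1* site at chr19:43524689-43524718, both on the minus strand of the chromosome.
Asns: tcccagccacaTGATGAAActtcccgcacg
Got1: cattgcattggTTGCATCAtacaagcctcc
In *Asns* the match began 23 bases before the RefSeq start, on the strand of the gene and within the longer GENCODE M21 gene model. In *Got1* it began 102 bases before the start and reads as the reverse complement, TTNCATCA. Of all 32851 windows 3.97% held the core, and the E-box CACGTG, which does not overlap it, was in 7.15% of windows and in 0 of the 5 members. *Glul*, *Glud1* and *Got2* held neither, and *Slc1a5*, *Slc38a1*, *Slc7a5* and *Gls2* were not examined. Of these, *Asns* was called lower in the *Nf1*/*Cdkn2a* dKO, and *Got1*, with a log2 fold change of 0.62, was not called. A match is a description of the letters in the window and not evidence of binding.

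*Got1* (ENSMUSG00000025190, chromosome 19, 43499752 to 43524605, minus strand) is the cytosolic aspartate aminotransferase, 1 arm of the malate-aspartate shuttle that moves reducing equivalents into mitochondria. It stood at 116, 93.7 and 93.9 CPM in *Nf1*/*p53* dKO lines 1, 2 and 3 and at 159, 169 and 141 CPM in *Nf1*/*Cdkn2a* dKO lines 1, 2 and 3. No culture of one genotype reached the other, the nearest being 123 and 134 CPM. The means of 101 ± 13.1 and 156 ± 14.4 CPM (SD, n = 3 lines each) gave a log2 fold change of 0.62 (standard error 0.15, 95% interval 0.26 to 0.99), with an edgeR p of 0.00495 and an adjusted p of 0.0848. DESeq2 on the same 6 lines called it (adjusted p = 0.0286), as it did 12.0% of all genes. It was also called in the 4 alternatives on 18 cultures, which called 46.5% (edgeR), 39.3% (DESeq2), 16.6% (limma-voom, lines as random effects) and 43.3% (edgeR, culture number as a block) of all genes. With 1 line left out the log2 fold change stayed between 0.57 and 0.74 and the adjusted p between 0.0897 and 0.225.

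*Got2* (ENSMUSG00000031672, chromosome 8, 95864134 to 95888547, minus strand) is the mitochondrial partner of *Got1*. It was at 434, 300 and 492 CPM in *Nf1*/*p53* dKO lines 1, 2 and 3 and at 363, 530 and 313 CPM in *Nf1*/*Cdkn2a* dKO lines 1, 2 and 3. The highest and the lowest line belonged to different genotypes and the other 4 lay between (log2 fold change −0.023, 95% interval −0.67 to 0.62, edgeR adjusted p = 0.970). The order of the 6 lines had no overlap of cultures between neighbors. The ratio of *Got1* to *Got2* per exon length, chosen after the values were seen, was 0.510, 0.594 and 0.363 in *Nf1*/*p53* dKO lines 1, 2 and 3 and 0.834, 0.606 and 0.854 in *Nf1*/*Cdkn2a* dKO lines 1, 2 and 3, so that the genotypes lay apart by a narrow margin (exact permutation p = 0.1, two-sided, the smallest that 3 lines against 3 allow).

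*Glud1* (ENSMUSG00000021794, chromosome 14, 34310727 to 34345265, plus strand) is the mitochondrial enzyme that deaminates glutamate to α-ketoglutarate. Its levels were 549, 280 and 318 CPM in *Nf1*/*p53* dKO lines 1, 2 and 3 and 593, 485 and 539 CPM in *Nf1*/*Cdkn2a* dKO lines 1, 2 and 3. *Nf1*/*p53* dKO line 1 sat among the *Nf1*/*Cdkn2a* dKO lines and its cultures overlapped those of *Nf1*/*Cdkn2a* dKO line 3, while the other 2 *Nf1*/*p53* dKO lines lay below all of them. The log2 fold change was 0.50 (standard error 0.27, 95% interval −0.16 to 1.15, edgeR adjusted p = 0.334). It was called in 4 of the 17 alternatives, those on the 18 cultures, with an adjusted p of 0.0221 by limma-voom with lines as random effects.

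*Glul* (ENSMUSG00000026473, chromosome 1, 153899944 to 153909723, plus strand), which makes glutamine from glutamate and ammonia, was at 90.9, 63.3 and 60.0 CPM in *Nf1*/*p53* dKO lines 1, 2 and 3 and at 87.2, 48.8 and 50.8 CPM in *Nf1*/*Cdkn2a* dKO lines 1, 2 and 3. In each genotype line 1 was the highest, and these 2 lines overlapped in their cultures and stood apart from the other 4 (log2 fold change −0.20, 95% interval −0.88 to 0.48, edgeR adjusted p = 0.715). The line number joins no lines across genotypes. *Gls2* (ENSMUSG00000044005, chromosome 10, 128194457 to 128210004, plus strand), the liver-type glutaminase and a known target of p53, was low at 3.67, 2.15 and 2.19 CPM and 3.10, 4.05 and 2.99 CPM. All neighbors in the order of the lines overlapped in their cultures, and the log2 fold change was 0.34 (standard error 0.35, 95% interval −0.50 to 1.18, edgeR adjusted p = 0.601). Its counts are uncertain because 97 of its exon bases are shared with *Spryd4* on the opposite strand, which had 4711 counts in all, and whether reads were counted by strand is not given.

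Of the 9 members, *Slc38a1* had the widest range over the 6 lines. *Slc38a1* (ENSMUSG00000023169, chromosome 15, 96571418 to 96642913, minus strand), a sodium-coupled carrier of glutamine, was at 87.2, 131 and 229 CPM in *Nf1*/*p53* dKO lines 1, 2 and 3 and at 185, 52.7 and 20.0 CPM in *Nf1*/*Cdkn2a* dKO lines 1, 2 and 3. The 6 lines had no overlap of cultures between neighbors, and the highest was 11.5-fold above the lowest. Within the *Nf1*/*Cdkn2a* dKO the range was 9.27-fold, 3.21 on the log2 scale (edgeR quasi-likelihood F test over cultures, adjusted p = 2.89e-21). The genotypes overlapped, with a log2 fold change of −0.80 (standard error 0.78, 95% interval −2.67 to 1.08, edgeR adjusted p = 0.586) that ran from −2.03 without *Nf1*/*Cdkn2a* dKO line 1 to −0.32 without *Nf1*/*Cdkn2a* dKO line 3. Of the 17 alternatives only limma-voom over cultures, with lines as random effects, called it (−1.27, adjusted p = 0.0444).

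*Slc1a5* (ENSMUSG00000001918, chromosome 7, 16781340 to 16798274, plus strand), known as ASCT2, exchanges glutamine for other neutral amino acids. It was at 22.0, 79.9 and 65.8 CPM in *Nf1*/*p53* dKO lines 1, 2 and 3 and at 73.3, 66.1 and 27.8 CPM in *Nf1*/*Cdkn2a* dKO lines 1, 2 and 3. A low line in each genotype, line 1 of the *Nf1*/*p53* dKO and line 3 of the *Nf1*/*Cdkn2a* dKO, stood apart from the other 4, whose cultures overlapped from neighbor to neighbor. The range within the *Nf1*/*p53* dKO was 3.60-fold (adjusted p = 2.87e-16, edgeR F test over cultures), and the log2 fold change between genotypes was −0.0044 (standard error 0.54, 95% interval −1.30 to 1.29, edgeR adjusted p = 0.997).

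*Slc7a5* (ENSMUSG00000040010, chromosome 8, 121881150 to 121907694, minus strand), known as LAT1, was at 179, 252 and 146 CPM in *Nf1*/*p53* dKO lines 1, 2 and 3 and at 168, 239 and 96.9 CPM in *Nf1*/*Cdkn2a* dKO lines 1, 2 and 3. In both genotypes line 2 was highest and line 3 lowest, and the 2 lines numbered 2 overlapped in their cultures (log2 fold change −0.19, 95% interval −1.05 to 0.67, edgeR adjusted p = 0.779). Its heavy chain *Slc3a2*, chosen after its values were seen, was more even at 154 to 223 CPM, and per exon length *Slc7a5* was 0.414 to 1.25 times *Slc3a2* (exact permutation p = 0.5 between genotypes).

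Among lines of a genotype, the F test over cultures called 9 of 9 members in the *Nf1*/*p53* dKO, beside 73.2% of 14690 genes, and 8 of 9 in the *Nf1*/*Cdkn2a* dKO, beside 56.8%. The exception was *Gls2* (adjusted p = 0.233). The folds from the lowest to the highest line of a genotype were smallest for *Got1*, at 1.25 over *Nf1*/*p53* dKO lines and 1.20 over *Nf1*/*Cdkn2a* dKO lines. For *Asns* they were 1.67 and 1.28 and for *Glud1* 1.97 and 1.23. The cultures of 1 line share a tumor, so these tests compare the lines and not the genotypes. The share of the variance of log2 CPM within a genotype that lay between lines was 90.1 to 99.7% for all members but *Gls2* (72.0%) in the *Nf1*/*p53* dKO, against a median of 84.4% over all tested genes. In the *Nf1*/*Cdkn2a* dKO it was 34.9% for *Gls2*, 63.4% for *Asns*, 76.2% for *Got1* and 92.6 to 99.7% for the other 6, against a median of 60.9%.

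**Figure D3:**
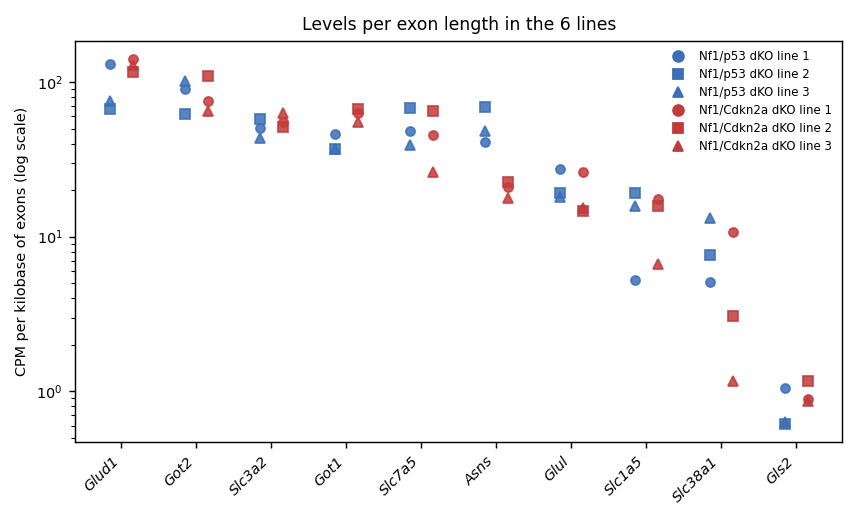
Levels per exon length, in CPM per kilobase of exons on a log axis, of the 9 genes with *Slc3a2* (horizontal axis, in order of the median of the lines), 1 point per line (blue, *Nf1*/*p53* dKO; red, *Nf1*/*Cdkn2a* dKO; circle, square and triangle for lines 1, 2 and 3). *Glud1* and *Got2* lead and *Gls2* is lowest, with medians of 122, 82.6 and 0.876 CPM per kilobase.

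Levels of different genes can be compared per length of exons only. By the median of the 6 lines, *Glud1* led with 122 CPM per kilobase (66.5 to 141 over the lines), followed by *Got2* with 82.6 (62.1 to 110), *Got1* with 50.6 and *Slc7a5* with 46.9. *Asns* had 31.9, *Glul* 18.6, *Slc1a5* 15.8 and *Slc38a1* 6.33 CPM per kilobase, and *Gls2* was last with 0.876. In this order the ranges over lines overlapped for every pair of neighbors. For *Slc38a1* and *Gls2* the overlap was narrow and came from different lines. The lowest *Slc38a1* was 1.161 CPM per kilobase in *Nf1*/*Cdkn2a* dKO line 3, and the highest *Gls2* was 1.167 in *Nf1*/*Cdkn2a* dKO line 2. Compared within a line, *Got2* lay above *Got1*, *Slc1a5* above *Slc38a1* and *Slc38a1* above *Gls2* in each of the 6 lines. The other pairs of neighbors changed order between lines. The ratio of *Asns* to *Got1* per exon length, chosen after the values were seen, was 0.897, 1.87 and 1.31 in *Nf1*/*p53* dKO lines 1, 2 and 3 and 0.332, 0.341 and 0.322 in *Nf1*/*Cdkn2a* dKO lines 1, 2 and 3. *Asns* was lower and *Got1* higher in every *Nf1*/*Cdkn2a* dKO line, so this ratio had to separate the genotypes. Its exact permutation p of 0.1 was fixed by that and is no further test. The *Nf1*/*Cdkn2a* dKO lines were nearly alike in this ratio.

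For each member, the gene whose log2 CPM was most alike over the 18 cultures was sought among 10305 other genes with a mean of at least 5 CPM (10306 for *Gls2*, itself below that level). For *Asns* it was *Fam20a* (Pearson r = 0.979), for *Got1* *Cpe* (0.978) and for *Glud1* *Tctn2* (0.979). For *Got2* it was *E2f4* (0.963), for *Glul* *Atp6v1c1* (0.958) and for *Gls2* *Ppp4r2* (0.873). For the carriers *Slc1a5*, *Slc38a1* and *Slc7a5* it was *N6amt2* (0.956), *Eif3e* (0.960) and *Dhx33* (0.943). The targeted gene *Trp53*, named after its values were seen, was the second most like *Got1* (0.976). Both genes separate the genotypes, which by itself raises such a correlation. The 18 points come from only 6 lines and the highest of many correlations was taken, so these values are descriptions of the samples.

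The other genes of the pathway were taken as 3 lists. Of 33 genes of the ATF4 amino acid response, *Asns* left out, all had enough counts, and 7 fell in the *Nf1*/*Cdkn2a* dKO and 0 rose by edgeR's adjusted p, beside 1.16% of all genes lower and 0.638% higher. *Psph* (log2 fold change −1.54, adjusted p = 0.0189) and *Phgdh* (−1.38, 0.0465) make serine, and *Slc6a9* (−1.28, 0.0388) carries glycine. *Aldh1l2* (−1.66, 0.0361) is a mitochondrial enzyme of folate metabolism, *Gpt2* (−1.71, 0.0388) makes alanine and α-ketoglutarate from pyruvate and glutamate, *Sars* (−0.85, 0.0499) charges serine tRNA and *Trib3* (−2.09, 0.0465) is a pseudokinase that inhibits ATF4. Of these 7, *Psph* and *Trib3* were also called without *Nf1*/*p53* dKO line 3 (where 0.681% of all genes are called, *Slc7a3* of the list among them), *Psph* and *Aldh1l2* without *Nf1*/*p53* dKO line 1, and 0 without any of the other 4 lines.

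In the whole list 23 genes had a log2 fold change below 0 and 10 above. The median was −0.52 beside −0.023 over all genes, and −0.65 to −0.48 with 1 line left out. An unadjusted p of 0.05 was passed by 19, of which 17 were lower, beside 12.5% of all genes lower. The lines did not overlap in 19, of which 17 were lower in the *Nf1*/*Cdkn2a* dKO, beside 16.6% of all genes lower and 14.8% higher. The values ran from *Slc7a3*, a carrier of cationic amino acids (−4.16, adjusted p = 0.0553), to *Stc2*, a secreted glycoprotein (1.05, 0.133). *Atf4* itself, chosen after its values were seen, was at 321, 321 and 453 CPM in *Nf1*/*p53* dKO lines 1, 2 and 3 and at 224, 212 and 177 CPM in *Nf1*/*Cdkn2a* dKO lines 1, 2 and 3, without overlap (log2 fold change −0.84, standard error 0.19, edgeR adjusted p = 0.0785). *Psat1*, the enzyme of serine synthesis between *Phgdh* and *Psph* and also chosen after its values were seen, was at 373 to 568 CPM in the 6 lines (log2 fold change 0.12, adjusted p = 0.753). The summed muscle markers were lower with these genes. Of the fibroblast markers *Dcn* and *Lum* were too, while *Pdgfra* and *Thy1* overlapped between genotypes. The part of these markers in the list's values was not tested. The C/EBP-ATF core was in 8 of the 26 listed genes with a promoter entry (30.8%), beside 2.88% of 10632 tested genes with one. The list was chosen as genes of the ATF4 response, so a high share of this element can come from that choice alone. Of the 7 called genes the core was in *Trib3* alone among the 6 with an entry.

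**Figure D4:**
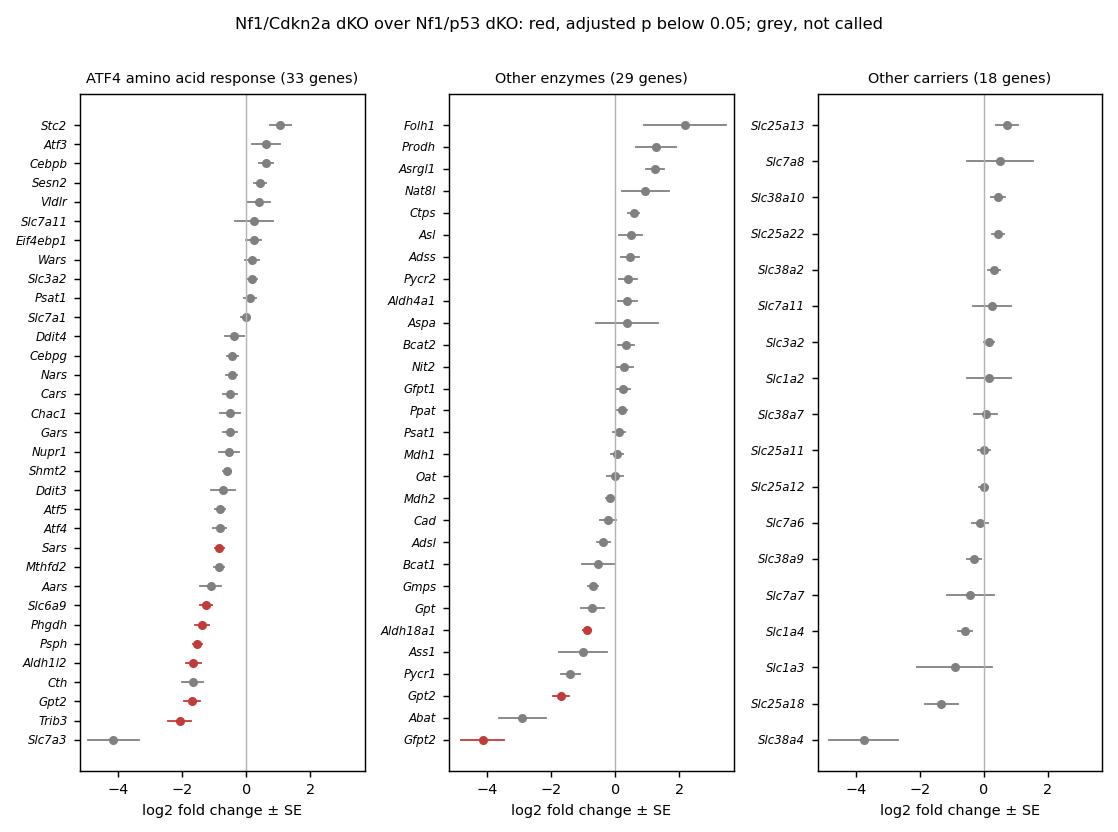
Log2 fold change ± standard error, *Nf1*/*Cdkn2a* dKO over *Nf1*/*p53* dKO (horizontal axes), of genes of 3 lists, 33 of the ATF4 amino acid response, 29 of the 30 other enzymes tested and 18 other carriers (red, adjusted p below 0.05 by edgeR; grey, not called; n = 3 lines each). All genes called have values below 0, 7 in the first list and 3 in the second, and the other carriers hold none.

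Of 32 other enzymes of glutamine, glutamate and aspartate, 30 were tested, and 3 fell while 0 rose, beside 1.16% of all genes lower and 0.638% higher. *Gfpt2*, an enzyme of the hexosamine pathway that uses glutamine, went from 10.3, 22.5 and 8.99 CPM in *Nf1*/*p53* dKO lines 1, 2 and 3 to 1.40, 0.346 and 0.626 CPM in *Nf1*/*Cdkn2a* dKO lines 1, 2 and 3 (log2 fold change −4.14, adjusted p = 0.0465). *Aldh18a1*, the first enzyme of proline synthesis from glutamate, fell from 124, 127 and 109 CPM to 68.0, 66.0 and 59.6 CPM (−0.89, 0.0388), and *Gpt2*, which is in both lists, from 62.9, 45.7 and 69.3 CPM to 16.3, 23.4 and 14.7 CPM. The 3 use glutamine or glutamate in different pathways. Log2 fold changes lay above 0 for 17 and below 0 for 13 enzymes with a median of 0.16 (0.029 on raw totals), and the highest was *Folh1* (2.18, adjusted p = 0.359), a peptidase below 1 CPM in every line. Without *Nf1*/*p53* dKO line 3 only *Aldh18a1* was called, without *Nf1*/*p53* dKO line 1 only *Ass1*, which is not among the 3 and is named here after its values were seen, and without any of the other 4 lines 0 enzymes.

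Of 23 other carriers 18 were tested and 0 were called by edgeR, with 3 at an unadjusted p of 0.05 (beside 22.4% of all genes), all lower in the *Nf1*/*Cdkn2a* dKO. DESeq2 on the 6 lines called 2 of the 20 it tested, beside 12.0% of all genes. Their median was 0.029 (−0.11 on raw totals), with 10 above 0 and 8 below, from *Slc38a4*, a carrier of neutral amino acids (−3.76, adjusted p = 0.114), to *Slc25a13*, a mitochondrial exchanger of aspartate for glutamate (0.73, 0.273). *Slc38a4* was at 7.90, 44.3 and 2.85 CPM in *Nf1*/*p53* dKO lines 1, 2 and 3 and at 1.20, 2.13 and 0.704 CPM in *Nf1*/*Cdkn2a* dKO lines 1, 2 and 3. Line 2 of the *Nf1*/*p53* dKO was by far the highest, and without it the log2 fold change was −1.98.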

How the data were processed

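The authors deposited raw counts of reads, not normalized, for 35275 genes, and all 18 sample columns were used. The submitters' processing notes name CASAVA, STAR 2.5, DESeq2 1.14.1 and the builds GRCm38 and mm10. The counting tool, its annotation and its strand setting are not given in the sources used here. The study's statistics section gives another number of replicates than its labels, which were followed here.

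The counts of a line's 3 cultures were added, filtered by filterByExpr (at least 10 counts, total at least 15), TMM-scaled and tested with edgeR 4.0.16 (limma 3.58.1, DESeq2 1.42.0, R 4.3.3; Python 3.11.15, numpy 2.4.6, pandas 2.3.3, matplotlib 3.10.9). Lines of a genotype were compared by an F test over the 18 libraries. Intervals of log2 fold changes use the fit's standard error and degrees of freedom. Gene positions and exon lengths are from GENCODE M21. Levels of lines come from the summed counts and those of cultures from the single libraries, each with its own TMM factors. Sums of cell type markers use raw library totals instead. Lines held at least 65206479 counts, so counting error is small for all members but *Gls2*. The steps were tested on simulated data, with differences between genotypes larger than that of any member. This does not show how often differences of the members' size would be called.

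The members and lists were chosen with earlier results of these data known. Beside the members, the genes named are, by rule, each list's called genes and its extremes and each member's most alike gene, and others are named as chosen after their values were seen. Results of a few listed genes are left out of the text and figures. Alternatives were other units of replication, tests, scalings and filters, blocks and single lines or cultures left out.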

Additional observations from a re-analysis of the deposited data

How the results depend on the processing

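The log2 fold changes of *Asns*, *Got1*, *Glud1*, *Gls2* and *Slc38a1* kept their direction under all 17 alternatives. Values near 0 reversed. For *Slc1a5* it was 0.081 with limma-voom (lines as random effects), 0.0014 with DESeq2 on the 6 lines, 0.0038 with no filter and 0.043 with the line number as a block, and −0.39 to 0.36 with 1 line left out. With 1 line left out it was −0.53 to 0.089 for *Slc7a5*, −0.51 to 0.015 for *Glul* and −0.27 to 0.14 for *Got2*. Depth limits *Gls2* most.

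The unit of replication moved the counts most. As separate samples the 18 cultures gave 6096 called genes with edgeR and 7186 with DESeq2, and 5681 with the culture number as a block. Limma-voom with lines as random effects gave 2173, DESeq2 on the 6 lines 2060 and raw totals 423. In the same order, the enzymes called were 16, 16, 14, 9 and 7 (raw totals within 1.5 times of the 3 reported), the carriers 7, 9, 7, 3 and 2, and the ATF4 list 24, 24, 24, 19 and 15, with 12 on raw totals. On raw totals the medians of the lists were 0.029, −0.11 and −0.65. With 1 line left out, 0 genes were called without *Nf1*/*Cdkn2a* dKO line 1 (2668 at an unadjusted p of 0.05), 2 without line 2 and 23 without line 3 of that genotype, and 172, 27 and 107 without *Nf1*/*p53* dKO lines 1, 2 and 3. The enzymes then had 0 to 1 called and the ATF4 list 0 to 3, with a median of −0.65 to −0.48. The cause was not tested.

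Line and culture numbers do not pair the samples, since same-numbered lines had correlations of −0.0988, −0.133 and −0.0848 in their deviations and same-numbered cultures medians of −0.0115 to 0.0116. With the line number as a replicate block 0 genes were called (2740 at an unadjusted p of 0.05), with 0 enzymes, 0 carriers and 0 ATF4 genes, and *Asns* had a log2 fold change of −1.35 (edgeR adjusted p = 0.109). With the culture number as a block, the lines of the *Nf1*/*p53* dKO differed in 10666 genes and those of the *Nf1*/*Cdkn2a* dKO in 8273, against 10758 and 8342 without it. *Gls2* was called among *Nf1*/*p53* dKO lines in 6 of 8 alternatives, and *Got1* among *Nf1*/*Cdkn2a* dKO lines in 7 of 8.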
